A study of Mus musculus with 33 samples.

Results

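The chemokines CXCL12 and CCL25 and their receptors were measured in mouse thymus through 5 genes: the ligands Cxcl12 and Ccl25, the signalling receptors Cxcr4 and Ccr9, and the atypical receptor Ackr4. Every probe set (a group of short array probes that reports 1 signal) annotated to 1 of these symbols was taken, which gave 14 of the 45037 probe sets and 5 of the 18193 genes on the array table. Cxcl12 had 3 probe sets, Ccl25 had 2, Cxcr4 had 1, Ccr9 had 5 and Ackr4 had 3. Of the 14, 12 were brighter than the median of their array on at least 3 arrays and entered the tests, and the other 2 (1 of Cxcl12 and 1 of Ackr4) did not. The 5 genes were chosen by name, with earlier results of these arrays known.

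The study set RNA of dissected thymus compartments beside RNA of sorted thymocytes, on 33 Affymetrix arrays with 1 sample each. Dissected tissue comprised whole medulla (n = 7), whole cortex (n = 7) and 3 parts of the cortex that run outward from the medulla, namely perimedullary, central and subcapsular cortex (n = 3 each). Sorted cells comprised medullary thymocytes (n = 5), taken as CD45-positive cells with high CD3, and cortical thymocytes (n = 5). The cortical gate took CD45-positive cells that lacked CD3 or had little of it and that also bore CD90 or CD117. All 7 groups came from male C57BL/6J mice, listed as C57BL6 among the characteristics, at an age of 4 to 6 weeks, and the labels give no treatment and no engineered allele in any group. Arrays are titled as biological replicates but are not tied to animals, so that if arrays of different groups or of 1 group share animals, the p-values may be too small. Tissue RNA and sorted-cell RNA were prepared with different kits, so that wherever tissue is set against sorted cells, the kit and the sample type cannot be told apart. In all bulk samples here, fewer cells of a type and less RNA per cell cannot be told apart.

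CXCL12 is made by stromal cells in many organs, and in the mouse thymus stromal cells of the cortex, epithelium among them, are a known source. Its receptor CXCR4 is a G-protein-coupled receptor that keeps immature thymocytes in the cortex and acts together with the pre-T-cell receptor when these cells pass beta-selection. CCL25 is a chemokine of thymic epithelium and small intestine that draws CCR9-bearing progenitors into the thymus and attracts double-positive thymocytes, and CCR9 is one of the receptors found on most of them. ACKR4 binds CCL19, CCL21 and CCL25 and takes them up without G-protein signalling, which lowers the amount of free ligand. FOXN1, the transcription factor that thymic epithelium needs to form, is known to act on Ccl25 in mice, and its DNA-binding core has been described as GACGC.

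The promoter windows of the ligands are shown because both ligands were much brighter in tissue than in sorted thymocytes and brighter in whole cortex than in whole medulla. The sequences are those of RefSeq on GRCm38.p6, the 250 bases before an annotated start, 5′ to 3′ on the plus strand, with GACGC or its reverse complement GCGTC in capitals. The Cxcl12 window lies at chr6:117168285-117168534. Ccl25 has 2 annotated windows, at chr8:4324960-4325209 and chr8:4349338-4349587.
Cxcl12: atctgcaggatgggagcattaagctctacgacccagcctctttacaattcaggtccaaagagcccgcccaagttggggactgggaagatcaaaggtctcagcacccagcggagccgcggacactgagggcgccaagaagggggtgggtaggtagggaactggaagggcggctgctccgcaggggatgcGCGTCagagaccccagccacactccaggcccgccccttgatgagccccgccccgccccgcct
Ccl25 window 1: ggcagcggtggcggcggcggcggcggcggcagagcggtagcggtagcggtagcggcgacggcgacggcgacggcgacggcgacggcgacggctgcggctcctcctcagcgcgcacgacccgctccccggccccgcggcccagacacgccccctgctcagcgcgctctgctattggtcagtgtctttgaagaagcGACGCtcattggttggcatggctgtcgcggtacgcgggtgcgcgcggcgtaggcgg
Ccl25 window 2: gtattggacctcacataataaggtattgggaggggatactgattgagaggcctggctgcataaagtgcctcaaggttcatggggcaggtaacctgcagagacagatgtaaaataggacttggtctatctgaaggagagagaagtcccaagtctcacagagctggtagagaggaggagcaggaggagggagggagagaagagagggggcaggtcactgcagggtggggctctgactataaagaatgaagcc
The core occurred 1 time in the Cxcl12 window and 1 time in the first Ccl25 window, counted on both strands, and 0 times in the second Ccl25 window. The windows of Cxcr4, Ccr9 and Ackr4 held 0 copies each. Over all 32851 promoter windows of the table, 7423 (22.6%) held the core at least 1 time, so that a match is frequent. The GC content was 64.4% in the Cxcl12 window, 74.8% and 51.6% in the 2 Ccl25 windows, 61.2% in that of Cxcr4, 50.4% in that of Ccr9 and 45.2% in that of Ackr4, against a median of 52.4% over all windows. A TATAAA box on either strand was found in the second Ccl25 window, in that of Cxcr4 and in that of Ackr4, and in 12.4% of all windows. A match of letters is a description of the window and does not show that a factor binds there.

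Signals are the deposited MAS5 values on a linear scale, scaled on each array separately. The median signal of an array ranged from 71.9 to 163, and the value exceeded by 0.1% of probe sets ranged from 16919 to 75998. That value lay above 42000 on 13 arrays, called here wide-tailed arrays: 5 of whole medulla, 5 of whole cortex and 3 of medullary thymocytes, and 0 of the other groups. Values within and outside these arrays are given for whole medulla over whole cortex, and within or outside them for some results of sorted cells. Marker genes went with the labels. Rag2, which rearranges antigen receptor genes in immature thymocytes, averaged 46.3 ± 53.8 in medullary and 6854 ± 745 in cortical thymocytes (SD, n = 5 each), and Aire, a regulator of medullary epithelium, averaged 2333 ± 231 in whole medulla and 25.3 ± 24.2 in whole cortex (SD, n = 7 each). The summed signal of 12 cortical epithelial markers was 1431 to 2799.6 in medullary and 6571 to 7274 in cortical thymocytes, against 85859.9 to 112170.0 in whole cortex. The 8 endothelial markers summed to a median over arrays of 1711 in medullary and 1029 in cortical thymocytes, against 1244 in whole cortex. In each sorted group 6 of the 8 were below the array median on every array.

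Both ligands were lower in whole medulla than in whole cortex. Cxcl12 had signals of 752, 931 and 1108 (lowest, median and highest of 7) in whole medulla, against 7388, 7905 and 8575 in whole cortex. No medullary array came near the lowest cortical one. Ccl25 had signals of 2907, 3408 and 3564 in whole medulla, against 14646, 17794 and 20780.3 in whole cortex, again without overlap. Genes were tested in limma on log2(signal + 26.2), over 13463 genes with 1 probe set each, and single probe sets in a separate fit over 30045. A call required an adjusted p (Benjamini-Hochberg) under 0.05 together with a log2 fold change of at least 1 in size. The log2 fold change of whole medulla over whole cortex was -3.13 (SE 0.14, adjusted p = 1.4e-20) for Cxcl12 and -2.40 (SE 0.09, adjusted p = 5.0e-22) for Ccl25. Ccl25 averaged 3321 ± 223 in whole medulla, against 17671 ± 2227 in whole cortex (SD, n = 7 each).

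The second probe set of Cxcl12 that passed, 1417574_at, was dimmer and gave the same direction. Its signals were 82.9, 128 and 201 in whole medulla, against 1245, 1619 and 1877 in whole cortex. The log2 fold change in the fit of single probe sets was -3.38 (SE 0.16, adjusted p = 1.3e-18), beside -3.13 for 1448823_at, the brightest Cxcl12 probe set. The third, 1439084_at, stayed below the median of its array on all 33 arrays. For Ccl25, probe set 1458277_at lay near the array median in all groups, with group means of 101 in whole medulla and 77.4 in whole cortex, and was called in no comparison, so that the Ccl25 results rest on 1418777_at. In whole cortex over cortical thymocytes it was at -0.87 (SE 0.30, adjusted p = 0.02), against the direction of 1418777_at, and passed the size for a call without whole cortex array 4 (-1.01) or 7 (-1.08). Levels of different probe sets are not comparable, since each set binds with its own strength.

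The signalling receptors were also lower in whole medulla. Cxcr4 had signals of 839.9, 958 and 1144 in whole medulla, against 5309, 8283 and 10386 in whole cortex. The highest medullary array lay far below the lowest cortical one. Ccr9, by its brightest probe set 1427419_x_at, had signals of 7530.3, 9016 and 11213 in whole medulla, against 25369.6, 30835 and 38304 in whole cortex, also without overlap. Whole medulla over whole cortex gave -2.99 (SE 0.10, adjusted p = 2.5e-23) for Cxcr4 and -1.79 (SE 0.11, adjusted p = 7.6e-17) for Ccr9. By the brightest probe sets the Ccr9 decrease was the smallest of the 4, but Ccr9 set 1421919_a_at gave -2.39.

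Ackr4 went the other way. Its brightest probe set, 1437668_at, had signals of 149, 382 and 473 in whole medulla, against 73.3, 149 and 238 in whole cortex. The medullary array with 149 lay inside the cortical range, and the other 6 medullary arrays lay above it. The log2 fold change of 1.18 (SE 0.20, adjusted p = 2.7e-06) passed the test, but not with an offset of 105 (0.89), after quantile normalization (0.95) or as a mean over probe sets (0.95), all below the required size. The second passing set, 1437669_x_at, averaged 312 ± 98.9 in whole medulla and 179 ± 58.7 in whole cortex (SD, n = 7 each) and was not called, with a fitted log2 difference of 0.71 (SE 0.20, adjusted p = 0.0033). In all, 1 of the 5 genes was called higher and 4 were called lower in whole medulla, while 18.7% of all tested genes were called higher and 5.39% lower.

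The compartments also differed in markers of other cells. Markers of double-positive thymocytes summed to 12627 to 16239.8 in whole medulla, against 133009 to 208034 in whole cortex, and 10 of 11 tested were called lower. Markers of cortical epithelium summed to 38132 to 45382 in whole medulla, against 85859.9 to 112170.0 in whole cortex, and 6 of 12 were called lower, among them Psmb11, the catalytic subunit of the thymoproteasome, at -4.25 (SE 0.18, adjusted p = 5.2e-21) and Prss16, a protease of cortical epithelium, at -3.90 (SE 0.13, adjusted p = 3.5e-24). Markers of medullary epithelium (9 of 10), mesenchyme (7 of 10) and endothelium (5 of 8) were called higher in whole medulla. Their part in the differences of the 5 genes was not tested. Within the wide-tailed arrays (5 of each compartment), the log2 fold change was -3.23 for Cxcl12, -2.51 for Ccl25, -3.08 for Cxcr4, -1.94 for Ccr9 and 1.13 for Ackr4. Within the other arrays (2 of each compartment) it was -2.85, -2.11, -2.79, -1.40 and 1.30 in the same order of genes, and all 10 values passed the test.

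**Figure D1:**
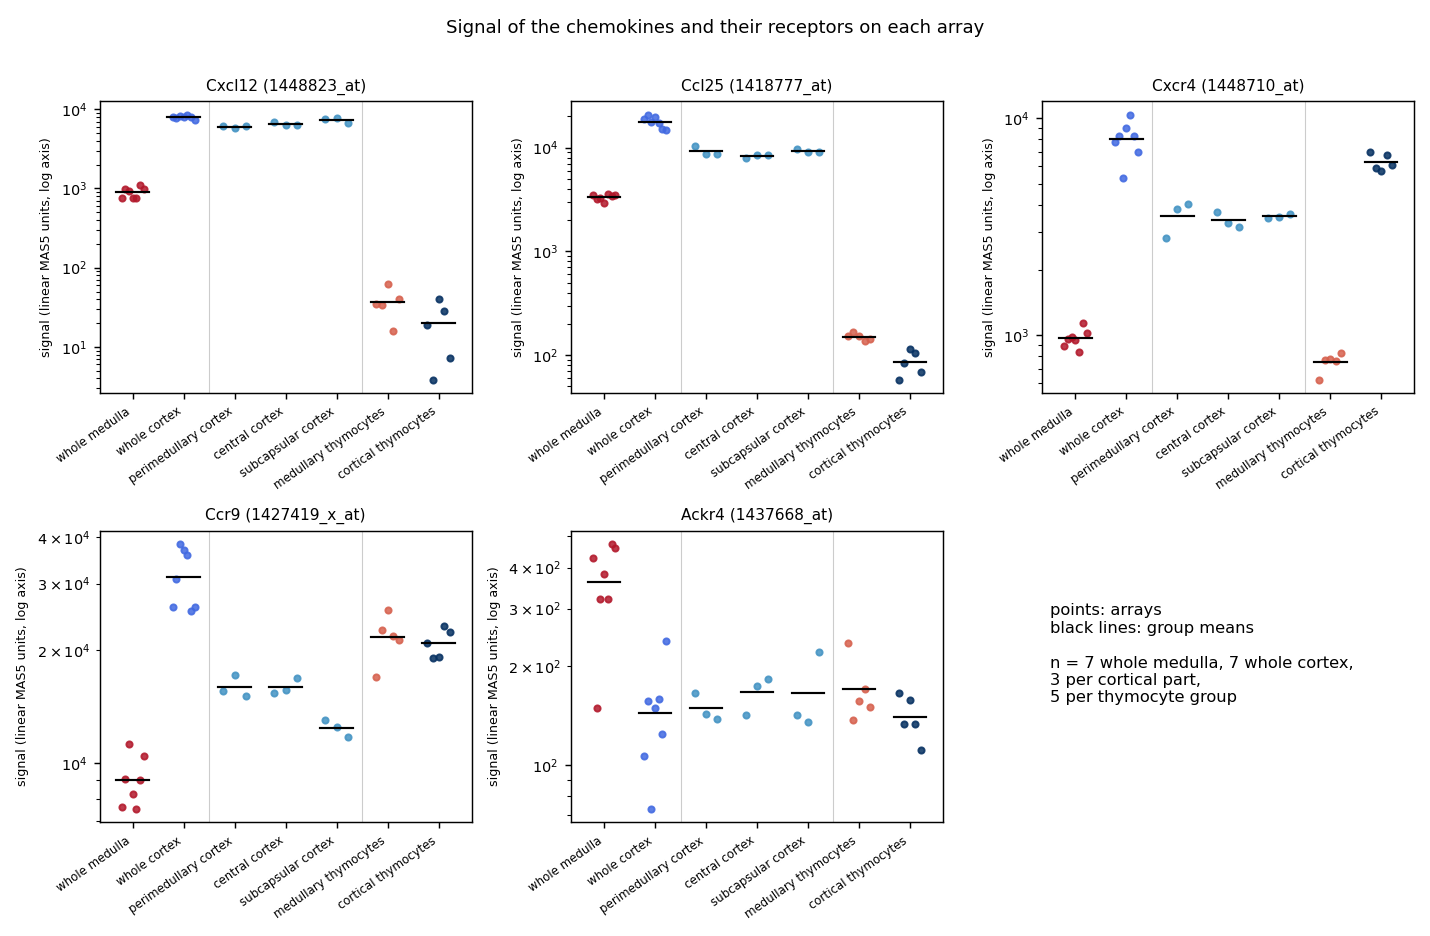
Signal of the brightest probe set of each gene on every array (points, MAS5 signal on a log axis) with the mean of each group (black line), for 7 whole medulla, 7 whole cortex, 3 perimedullary, 3 central and 3 subcapsular cortex, 5 medullary thymocyte and 5 cortical thymocyte arrays. Cxcl12 and Ccl25 were bright in tissue and dim in sorted cells, and Cxcr4 was low in both medullary groups. Ccr9 by this probe set was low in whole medulla but not in medullary thymocytes. Its other probe sets had lower means in medullary than in cortical thymocytes.

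Among sorted thymocytes, Cxcr4 was the member that was called. Its signals were 624, 766, 779, 765 and 830.3 in medullary thymocytes, against 6973, 5899.6, 5712, 6794 and 6083 in cortical thymocytes. All 5 medullary arrays lay below all 5 cortical ones. Medullary over cortical thymocytes gave a fitted log2 fold change of -3.02 (SE 0.12, adjusted p = 3.3e-21). It was -2.94 without the 3 wide-tailed medullary arrays. Of the 5 genes, 1 was called lower and 0 higher, while 6.31% of all tested genes were called lower and 7.69% higher.

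Ccr9 by its brightest probe set had signals of 16971, 22532, 25585, 21749.9 and 21288 in medullary thymocytes, against 20878, 19007, 19087, 23141 and 22336 in cortical thymocytes. The ranges overlapped. The fit gave 0.04 (SE 0.12, adjusted p = 0.83) with a 95% interval of -0.21 to 0.30, and the tissue value of -1.79 lay outside it. On the cortical arrays this set lay near the upper end of the signals. The value exceeded by 0.1% of probe sets was 26209 to 27819 on cortical and 32500 to 69138 on medullary thymocyte arrays. The interval does not allow for these unlike upper tails, and their part in the fitted Ccr9 value was not tested. Under quantile normalization the value turned to -0.48, still below the required size, but with adjusted p = 5.8e-04 in the limma fit of single probe sets. The other probe sets of Ccr9 gave lower values in medullary thymocytes, as described with the probe sets.

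The ligands were dim in sorted cells. Cxcl12 had signals of 35.3, 33.3, 61.5, 15.8 and 40.7 in medullary thymocytes, against 19.2, 3.85, 40.4, 28.7 and 7.22 in cortical thymocytes, and all 10 values were below the median of their array. At these signals the offset of 26.2 is as large as the signal, so that the log2 fold change of 0.49 (SE 0.16, adjusted p = 0.014) says little about its size. Ccl25 had signals of 153, 166, 154, 138 and 142 in medullary thymocytes, against 58.1, 84.4, 115, 106 and 69.0 in cortical thymocytes. All medullary values were above all cortical ones, but the log2 fold change of 0.67 (SE 0.11, adjusted p = 3.4e-06) was below the required size. Ackr4 had signals of 235, 137, 157, 171 and 149.8 in medullary thymocytes, against 165, 133, 157, 133 and 111 in cortical thymocytes, which overlapped, with a fitted log2 difference of 0.23 (SE 0.23, adjusted p = 0.47) and a 95% interval of -0.24 to 0.71.

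The sorted groups differed in markers of maturity. Markers of mature thymocytes summed to 113294 to 165798 in medullary thymocytes, against 4202 to 4820.4 in cortical thymocytes, and all 9 tested were called higher. Markers of double-positive thymocytes summed to 23852 to 29601 in medullary thymocytes, against 139715 to 149003 in cortical thymocytes, and 9 of 11 were called lower. Cxcr4 moved with the double-positive markers in both the sorted cells and the tissue, and the part of cell makeup in its difference was not tested.

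The compartment difference was then set in tissue beside that in sorted cells, as an interaction term in the same fit (tissue minus thymocytes). For Cxcr4 the medulla-over-cortex difference was -2.99 in tissue and -3.02 in thymocytes, and the difference between them was 0.03 (SE 0.16, adjusted p = 0.92) with a 95% interval of -0.30 to 0.36. For Ccr9 the difference was -1.79 in tissue and 0.04 in thymocytes, which gave an interaction of -1.83 (SE 0.16, adjusted p = 4.0e-11). Cxcl12 and Ccl25, dim in both sorted groups, gave interactions of -3.61 and -3.07. Ackr4 gave 0.95 (SE 0.30, adjusted p = 0.015), below the required size, but was called at 1.13 within the other arrays. It was also called without whole medulla array 2 (1.13), whole cortex array 7 (1.06), medullary thymocyte array 1 (1.06) or cortical thymocyte array 5 (1.02). Of the 5 genes, 3 were called lower and 0 higher, while 2.22% of all genes were called lower and 12.8% higher. Quantile normalization brought the Ccr9 interaction to -0.85, which was not called.

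**Figure D2:**
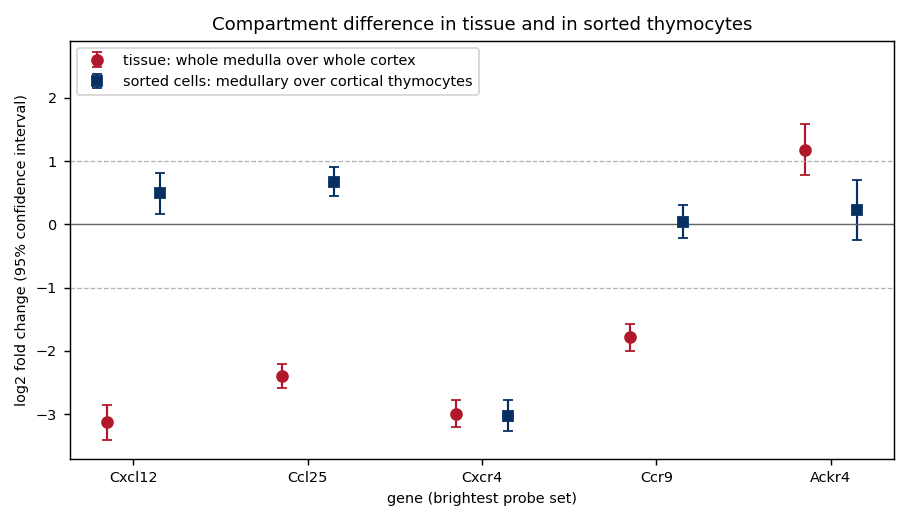
Log2 fold change of medulla over cortex for each gene (brightest probe set) with its 95% interval, in tissue (red circles, 7 against 7 arrays) and in sorted thymocytes (blue squares, 5 against 5 arrays). The dashed lines mark the size required for a call. The Cxcr4 values lay together near -3, whereas those of Cxcl12, Ccl25 and Ccr9 lay apart, with the tissue value lower.

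The 5 probe sets of Ccr9 differed in the size of their changes. The suffix x marks a set with probes that may also match other sequences, and the suffix a marks a set shared by transcripts of 1 gene. In whole medulla over whole cortex all 5 were called lower, at -2.39 for 1421919_a_at, -1.93 for 1421920_a_at, -1.79 for 1427419_x_at, -1.03 for 1436065_at and -1.27 for 1442758_at. Over all 30045 probe sets tested, 4.84% were called lower there. The call of 1436065_at was lost without whole medulla array 1 (-0.81) or 3 (-0.72) or whole cortex array 7 (-0.87).

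In medullary over cortical thymocytes 1427419_x_at gave 0.04 (SE 0.12, adjusted p = 0.84), and the other 4 sets were below 0. Probe set 1421919_a_at had signals of 2129, 2173, 3213, 3027 and 3204 in medullary thymocytes, against 4570.5, 4181, 4857, 4826 and 4359 in cortical thymocytes. Its log2 fold change was -0.75 (SE 0.15, adjusted p = 1.4e-04). Probe set 1421920_a_at averaged 8113 ± 1691 in medullary and 12861 ± 489 in cortical thymocytes (SD, n = 5 each), with a fitted log2 difference of -0.69 (SE 0.15, adjusted p = 4.8e-04). The sets with a plain suffix gave -0.58 (SE 0.20, adjusted p = 0.026) for 1442758_at and -1.11 (SE 0.39, adjusted p = 0.026) for 1436065_at. Of the 5, 1436065_at was called, against 5.91% of probe sets called lower, and its call was lost with array weights, with an offset of 105, with the wide tail as a term (-0.50) and within the other arrays (-0.45). It was also lost without medullary thymocyte array 1 (-1.07), 2 (-0.87) or 3 (-1.05) or cortical thymocyte array 3 (-1.05) or 4 (-1.02). The size of the Ccr9 difference between the sorted groups thus varied with the probe set, and no set was called higher. In the fit of genes the interaction was called lower for 2.22% of all genes. Among the Ccr9 sets it was called lower by 3, at -1.83 for 1427419_x_at, -1.64 (SE 0.20, adjusted p = 5.9e-08) for 1421919_a_at and -1.25 (SE 0.20, adjusted p = 1.2e-05) for 1421920_a_at. It was not called by 1442758_at, at -0.69 (SE 0.27, adjusted p = 0.062), or by 1436065_at, at 0.07 (SE 0.51, adjusted p = 0.95).

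**Figure D3:**
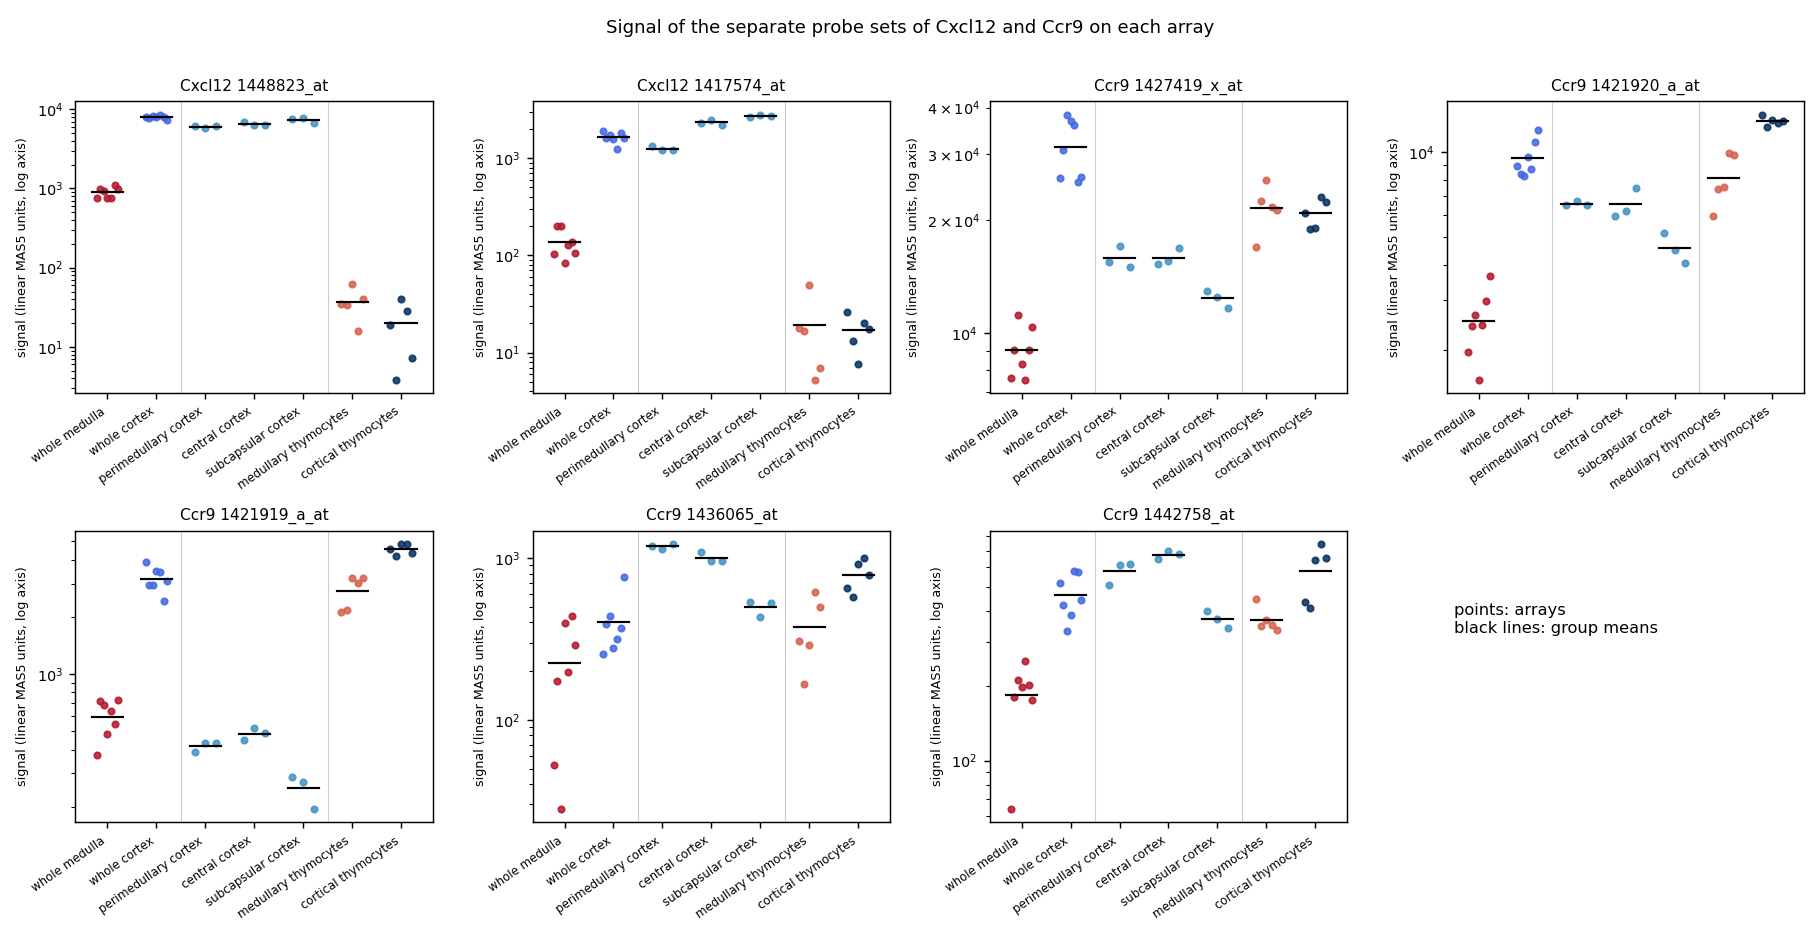
Signal on every array (points, log axis) of 2 probe sets of Cxcl12 and 5 of Ccr9, with group means (black lines) in the order whole medulla, whole cortex, perimedullary, central and subcapsular cortex, medullary and cortical thymocytes. All 5 Ccr9 sets were lower in whole medulla than in whole cortex, and 4 of the 5 had a lower mean in medullary than in cortical thymocytes.

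Across the 3 parts of the cortex, none of the 5 genes was called in any of 3 comparisons. In the perimedullary over central comparison 1.38% of all genes were called, in perimedullary over subcapsular 4.61% and in central over subcapsular 1.32%. At an unadjusted p under 0.05, limma gave 0, 1 and 1 of the 5 genes in the same order of comparisons, and both were Ccr9. Cxcl12 by its brightest probe set had signals of 6125, 5826 and 6173 in perimedullary, 6830.3, 6383 and 6243 in central and 7620.4, 7817 and 6653 in subcapsular cortex. The perimedullary values lay below all others, and the log2 fold change of perimedullary over subcapsular cortex was -0.28 (SE 0.21, adjusted p = 0.42) with a 95% interval of -0.71 to 0.14. The spread of a gene in this limma fit was shared by all 7 groups, sorted cells with dim Cxcl12 among them. The SE, p and interval thus do not measure the spread among the cortical arrays alone.

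The dimmer Cxcl12 probe set 1417574_at had signals of 1344, 1205 and 1206 in perimedullary, 2321, 2479.9 and 2166 in central and 2666, 2801 and 2681 in subcapsular cortex. No perimedullary value reached the central or subcapsular ones. In the fit of single probe sets its log2 fold change was -1.10 (SE 0.25, adjusted p = 0.0026) for perimedullary over subcapsular cortex, which was called lower as were 1.19% of probe sets, and -0.88 (SE 0.25, adjusted p = 0.08) for perimedullary over central cortex, which was not. The 2 sets thus gave 1 direction but different sizes, -0.28 in the brightest against -1.10 in the dimmer one.

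Ccl25 had signals of 10329, 8628 and 8681 in perimedullary, 7968, 8447 and 8532 in central and 9586, 9151 and 8989 in subcapsular cortex. Perimedullary overlapped subcapsular cortex, with a 95% interval of -0.30 to 0.28, and all central values lay below those of the other parts. Perimedullary over central cortex gave 0.14 (SE 0.14, adjusted p = 0.88) with an interval of -0.15 to 0.43. Cxcr4 had signals of 2795, 3797 and 4030.2 in perimedullary, 3703, 3292 and 3163 in central and 3467, 3510.5 and 3618 in subcapsular cortex, with an interval of -0.34 to 0.31 for perimedullary over subcapsular cortex. Ackr4 had signals of 165, 143 and 138 in perimedullary, 142, 175 and 183 in central and 142, 136 and 221 in subcapsular cortex. For Cxcr4 and Ackr4 every pair of parts overlapped.

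Ccr9 had signals of 15515, 17080.5 and 15055 in perimedullary, 15297, 15619 and 16843 in central and 12993, 12482 and 11706 in subcapsular cortex. The subcapsular values were below all others. Its log2 fold change was 0.36 (SE 0.16, adjusted p = 0.14) for perimedullary over subcapsular and 0.36 (SE 0.16, adjusted p = 0.2) for central over subcapsular cortex, neither of them called. Under quantile normalization these values were 0.88 and 0.94, not called because both were below the required size. The limma fit of single probe sets gave adjusted p = 3.3e-05 and 5.0e-05 for them. Probe set 1421919_a_at gave 0.70 (SE 0.19, adjusted p = 0.014) and 0.90 (SE 0.19, adjusted p = 0.004) for the same comparisons, below the required size. Probe set 1436065_at had signals of 1180.4, 1129 and 1221 in perimedullary, 1094, 953 and 955 in central and 532, 432 and 527 in subcapsular cortex. Its log2 fold change of perimedullary over subcapsular cortex was 1.21 (SE 0.50, adjusted p = 0.13), not called here. The SE again rests on a spread shared with whole tissue and sorted cells. The change was called within the other arrays (limma adjusted p = 2.6e-04) and under 4 further alternatives.

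Other markers moved across the cortex. Markers of mature thymocytes summed to 30732 to 33739.9 in perimedullary, 10362 to 11612 in central and 9459 to 11543 in subcapsular cortex, and 7 of 9 were called higher in perimedullary over subcapsular cortex. Markers of double-negative thymocytes, the earliest stages, summed to 7019 to 7941 in perimedullary, 7495 to 8498 in central and 11105 to 12347 in subcapsular cortex. Among them Il2ra, the alpha chain of the IL-2 receptor, was at -1.47 (SE 0.27, adjusted p = 1.2e-04) in perimedullary over subcapsular cortex. Markers of mesenchyme summed to 5435 to 6034, 3759.9 to 4175 and 9272 to 11859.6 in the same order of parts. Their part in the values of Cxcl12 and Ccr9 was not tested.

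Whole cortex was brighter than its parts for some genes. Ccl25 averaged 17671 ± 2227 in whole cortex (SD, n = 7), whereas its 9 values in the parts lay between 7968 and 10329. Ccr9 averaged 31312 ± 5655 in whole cortex, whereas its 9 values in the parts lay between 11706 and 17081. Cxcr4 averaged 8016 ± 1589 in whole cortex, whereas its values in the parts lay between 2795 and 4030.2. The gap was wider for Ccr9 probe set 1421919_a_at, which averaged 3181 ± 481 in whole cortex (SD, n = 7), against 387, 431 and 433 in perimedullary, 448, 519 and 489.7 in central and 285, 269 and 195 in subcapsular cortex. The whole cortex arrays that were not wide-tailed had 2442 and 3087 for this set. Ccr9 probe set 1436065_at lay the other way, with 401 ± 172 in whole cortex, against 1177 ± 46.5 in perimedullary, 1001 ± 81.2 in central and 497 ± 56.1 in subcapsular cortex. Whole cortex holds these parts, 5 of its 7 arrays were wide-tailed and no array of the parts was, so these levels are set side by side without a test.

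Tissue was next set against the sorted cells of its own compartment. In whole medulla over medullary thymocytes the log2 fold change was 3.89 (SE 0.15, adjusted p = 2.2e-22) for Cxcl12 and 4.24 (SE 0.10, adjusted p = 1.4e-28) for Ccl25. In whole cortex over cortical thymocytes it was 7.50 (SE 0.15, adjusted p = 8.1e-31) for Cxcl12 and 7.31 (SE 0.10, adjusted p = 2.2e-35) for Ccl25. The sorted Cxcl12 signals were of the size of the offset, so that its fold changes depend on the offset, whereas the ranges of the 2 kinds of sample lay far apart for both ligands. In whole cortex, 2 of the 5 genes were called higher and 0 lower, against 9.64% and 1.52% of all genes.

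Neither signalling receptor was called in whole cortex over cortical thymocytes. There Cxcr4 was at 0.33 (SE 0.11, adjusted p = 0.02) and Ccr9 at 0.57 (SE 0.12, adjusted p = 1.5e-04), both below the required size. The Ccr9 value is that of 1427419_x_at, and it turned to -0.20 under quantile normalization. The other 4 Ccr9 sets were below 0, at -0.53 (SE 0.14, adjusted p = 0.0029) for 1421919_a_at, -0.44 (SE 0.14, adjusted p = 0.012) for 1421920_a_at, -0.98 (SE 0.36, adjusted p = 0.031) for 1436065_at and -0.29 (SE 0.19, adjusted p = 0.23) for 1442758_at, none of them called. In whole medulla over medullary thymocytes Cxcr4 was at 0.35 (SE 0.11, adjusted p = 0.0091), which was not called. Ccr9 was lower in whole medulla, with signals of 7530.3, 9016 and 11213, against 16971, 22532, 25585, 21749.9 and 21288 in medullary thymocytes. The ranges did not overlap and the log2 fold change was -1.26 (SE 0.12, adjusted p = 1.1e-11). It was -1.31 within the wide-tailed arrays and -1.15 within the others. All 5 Ccr9 probe sets were below 0 in this comparison, from -2.17 for 1421919_a_at to -0.90 for 1436065_at, and 3 of them were called. In the fit of genes 1.23% of all genes were called lower there.

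Ackr4 in whole medulla over medullary thymocytes gave 0.94 (SE 0.21, adjusted p = 3.8e-04), just below the required size, and was called within the other arrays at 1.40, with an offset of 6.55 at 1.01, without whole medulla array 2 at 1.12 and without medullary thymocyte array 1 at 1.04. Its other passing set, 1437669_x_at, gave 1.04 (SE 0.22, adjusted p = 2.3e-04) and was called, as were 14% of probe sets in that direction, but not without whole medulla array 1 (0.95), 4 (0.99) or 6 (0.97) or medullary thymocyte array 2 (0.83). In whole cortex over cortical thymocytes Ackr4 was at -0.01, with a 95% interval of -0.45 to 0.43. Of the 5 genes, 2 were called higher and 1 lower in whole medulla over medullary thymocytes, against 19.5% and 1.23% of all genes. Markers of cortical epithelium (10 of 12), medullary epithelium (10 of 10), mesenchyme (10 of 10) and macrophages (7 of 7) were called higher in whole medulla in this comparison, and their part was not tested.

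The order of the 7 group means differed by gene and, for Cxcl12 and Ccr9, by probe set. By 1448823_at, Cxcl12 was highest in whole cortex, then in subcapsular, central and perimedullary cortex, whole medulla, medullary thymocytes and cortical thymocytes. Whole cortex overlapped subcapsular cortex, subcapsular overlapped central cortex and medullary overlapped cortical thymocytes. By 1417574_at, subcapsular cortex was highest at a mean of 2716, then central cortex at 2322 and whole cortex at 1633, without overlap between these neighbours. By 1418777_at, Ccl25 followed whole cortex, subcapsular, perimedullary and central cortex, whole medulla, medullary thymocytes and cortical thymocytes, and among neighbours only subcapsular and perimedullary cortex overlapped. Cxcr4 followed whole cortex, cortical thymocytes, perimedullary, subcapsular and central cortex, whole medulla and medullary thymocytes. Whole cortex overlapped cortical thymocytes, and each cortical part overlapped the next. By 1427419_x_at, Ccr9 followed whole cortex, medullary thymocytes, cortical thymocytes, central, perimedullary and subcapsular cortex and whole medulla, which was the lowest group. Whole cortex overlapped medullary thymocytes, medullary overlapped cortical thymocytes and central overlapped perimedullary cortex. The other Ccr9 sets gave other orders. Cortical thymocytes were highest, above whole cortex without overlap, by 1421919_a_at and 1421920_a_at, perimedullary cortex was highest by 1436065_at and central cortex by 1442758_at. Whole medulla was lowest by 4 of the 5 sets, and subcapsular cortex by 1421919_a_at, at 249.8. By 1437668_at, Ackr4 was highest in whole medulla and every pair of neighbours in its order overlapped.

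Genes with the most similar pattern were sought among all 13463 by Pearson correlation of log2 values over the 33 arrays. These correlations are descriptions, since the points share arrays and fall into tissue and sorted groups. Nearest to Cxcl12 were Enpep (0.992), Ccl25 (0.985), Fxyd2 (0.984), Clic5 (0.982) and Prss16 (0.980), where Enpep is a peptidase listed here among the cortical epithelial markers. Nearest to Ccl25 were Tbata (0.991), another gene of that marker list, Cbr2 (0.988), Cxcl12 (0.985), Fxyd2 (0.985) and Synm (0.983). Within single groups, Cxcl12 and Ccl25 correlated at 0.12 over the 7 whole medulla arrays and at 0.06 over the 7 whole cortex arrays. Nearest to Cxcr4 were Myb (0.972), a transcription factor of immature thymocytes, Dgkeos (0.967), Rmnd5a (0.967), A930003A15Rik (0.964) and Ets2 (0.964).

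For Ccr9 the closest genes were less close, namely Nono (0.903), Zbtb1 (0.901), Rgcc (0.893), Slamf1 (0.890) and Paip2 (0.890). For Ackr4 they were Sftpd (0.833), Gjb6 (0.818), Irx3 (0.815), Muc1 (0.814) and Prap1 (0.813).

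The other chemokine receptors were also tested. Of 16, 11 were called higher and 0 lower in whole medulla over whole cortex, beside 18.7% and 5.39% of all genes, with a median log2 fold change of 1.70 against 0.11 over all genes. Ccr7, the receptor for CCL19 and CCL21 that brings positively selected thymocytes to the medulla, averaged 6155 ± 874 in whole medulla and 214 ± 49.5 in whole cortex (SD, n = 7 each), and the log2 fold change between them was 4.70 (SE 0.14, adjusted p = 7.1e-25). Ccr6 was at 3.08, Ccr2 at 2.76 and Ccr1 at 2.59. At an unadjusted p under 0.05, 14 were higher and 0 lower. For this and the lists below, the shares of all genes count calls, and all genes were not counted at the unadjusted limit.

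In medullary over cortical thymocytes 8 of the 16 were called higher and 0 lower (11 and 0 at an unadjusted p under 0.05), beside 7.69% and 6.31% of all genes, with a median of 1.04 against 0.07 over all genes. Ccr7 averaged 9302 ± 934 in medullary and 113 ± 15.8 in cortical thymocytes (SD, n = 5 each), and the log2 fold change between them was 6.07 (SE 0.17, adjusted p = 5.9e-26). Ccr8 was at 4.14, Cxcr6 at 3.36 and Ccr6 at 1.88. Over the alternative settings the count called higher ranged from 6 to 10 in thymocytes and from 6 to 14 in tissue, the 6 in tissue under a stricter filter on low signal. Ccr7 also stands in the list of mature thymocyte markers, all of which were called higher in both comparisons, and the part of cell makeup was not tested. In whole medulla over medullary thymocytes 8 of the 16 were called higher and 2 lower, beside 19.5% and 1.23% of all genes. The 2 lower ones were Ccr4 at -1.49 and Ccr8 at -1.34. The interaction called 3 higher and 3 lower, beside 12.8% and 2.22% of all genes. Its lower ones were Ccr7 at -1.37, Ccr8 at -1.71 and Cxcr6 at -1.01.

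**Figure D4:**
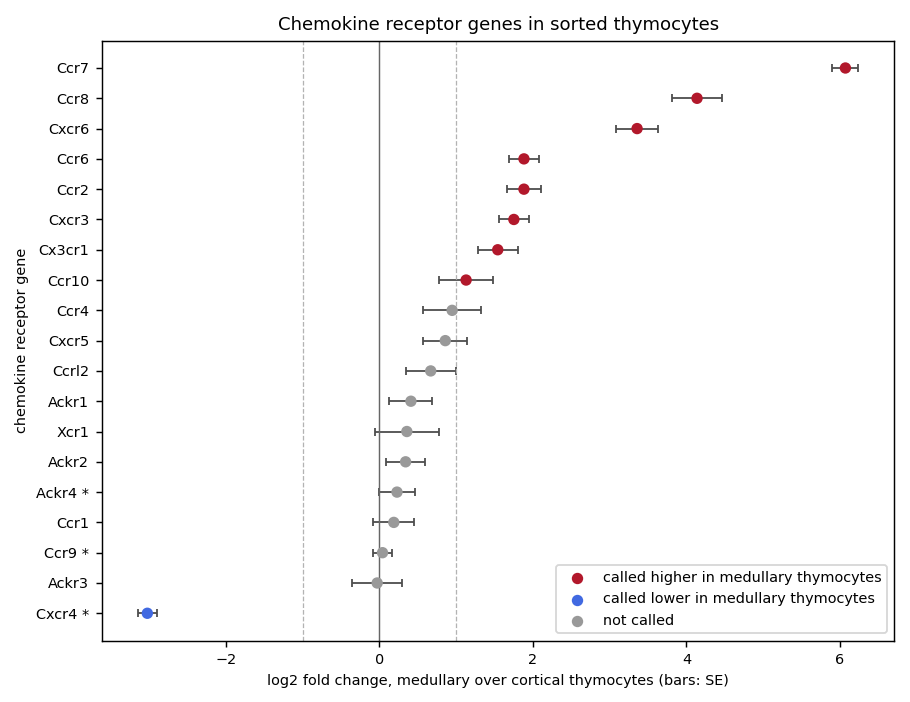
Log2 fold change of medullary over cortical thymocytes for 16 other chemokine receptors and for Cxcr4, Ccr9 and Ackr4 (marked with an asterisk), with the standard error as bars. Red points were called higher, blue lower and grey were not called. Cxcr4, at -3.02, was the only receptor called lower, and Ccr7, at 6.07, was the highest.

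Other chemokine ligands also differed from Cxcl12 and Ccl25. Of 27 tested, 20 were called higher and 0 lower in whole medulla over whole cortex (25 and 0 at an unadjusted p under 0.05), beside 18.7% and 5.39% of all genes. Ccl5, an inflammatory chemokine, averaged 9283 ± 1085 in whole medulla and 131 ± 70.4 in whole cortex (SD, n = 7 each), and the log2 fold change between them was 6.05 (SE 0.26, adjusted p = 1.0e-20). Cxcl9 was at 5.19, Ccl22 at 5.07 and Ccl20, the ligand of CCR6, at 4.21. In medullary over cortical thymocytes 6 were called higher and 0 lower (7 and 1 at an unadjusted p under 0.05), beside 7.69% and 6.31% of all genes, led by Xcl1 at 3.29, Ccl5 at 2.44, Cxcl10 at 1.61 and Ccl4 at 1.40. With an offset of 105 the count in thymocytes was 2. Markers of macrophages summed to 28383 to 37324 in whole medulla, against 8997 to 12703 in whole cortex, and 4 of 7 were called higher and 1 lower, and their part in the ligand signals was not tested.

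Genes that switch chemokine receptors off were tested as a list of 13. In medullary over cortical thymocytes 7 were called higher and 0 lower (9 and 2 at an unadjusted p under 0.05), beside 7.69% and 6.31% of all genes. In whole medulla over whole cortex 6 were called higher and 0 lower (11 and 0 at an unadjusted p under 0.05), beside 18.7% and 5.39% of all genes. Rgs1, which speeds up the return of G proteins to the resting state, was at 2.58 (SE 0.19, adjusted p = 1.3e-13) in thymocytes and 3.49 in tissue. Rgs16 and Rgs3, of the same family, were at 2.54 and 1.77 in thymocytes, and Arrb2, a beta-arrestin that draws receptors from the membrane, was at 1.60. The count in thymocytes ranged from 3 to 7 over the alternative settings.

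Of 32 tested genes of chemokine signalling downstream of the receptors, 2 were called higher and 0 lower in medullary over cortical thymocytes. The shares called were 7.69% and 6.31% of all genes. The 2 were Gng2, a G-protein gamma subunit, at 2.89 (SE 0.30, adjusted p = 3.6e-10) and Rassf5, an adaptor of integrin activation, at 1.08. At an unadjusted p under 0.05, 13 of the list were higher and 9 lower, without a count of all genes at that limit. In whole medulla over whole cortex 3 were called higher, Gng2 at 1.92, the kinase Ptk2b at 1.25 and the phospholipase Plcb3 at 1.10, and 1 lower, the haematopoietic GTPase Rhoh at -1.51 (8 and 10 at an unadjusted p under 0.05), beside 18.7% and 5.39% of all genes.

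Ackr3, which like ACKR4 is an atypical receptor and takes up CXCL12, was called across the cortex. Its signals were 13.6 to 34.2 in perimedullary, at most 8.64 in central and 80.2 to 110.0 in subcapsular cortex (lowest to highest, n = 3 each), without overlap between any of the parts. It was called lower in perimedullary over subcapsular cortex (adjusted p = 0.038) and in central over subcapsular cortex (adjusted p = 0.0018). All central signals were below the offset of 26.2, so that the offset sets the size of the fitted change and no fold is given. Mesenchyme markers were also lowest in central cortex, with 6 of 10 called lower in central over subcapsular cortex, and their part in the Ackr3 values was not tested.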

How the data were processed

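Biotin-labelled RNA was hybridised to Affymetrix arrays. The values deposited by the authors are intensity values (probe set signals) on a linear scale, and the submitters' processing notes name Affymetrix Expression Console 1.0 and MAS5. Background settings are not given in the sources used here. Trimmed means of 492 to 498 on all arrays show scaling of each array, and no further normalization was applied. Before taking log2, 26.2 was added to each signal (the 25th percentile of an array's signals, as its median across arrays). Probe sets above their array's median on at least 3 arrays were kept (30045, of which 24883 had 1 symbol), and the brightest stood for its gene. limma 3.58.1 (R 4.3.3) fitted 7 group means over 33 arrays (26 residual degrees of freedom, trended variance), 2-sided, and was tested on simulated data. The precision is limited by the number of arrays. Symbols came from the platform annotation and promoters from RefSeq. Listed genes that were not on the table or did not pass were not analysed here. The members and gene lists were chosen with earlier results of these data known. Genes named beside the 5 members were the 5 most similar in pattern, up to 4 called genes with the largest change per list and up to 2 markers per cell type. Alternatives changed the offset, normalization, filter, probe set choice, samples in the fit, replicate block, array weights and the handling of wide-tailed arrays, and left out each array in turn.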

Additional observations from a re-analysis of the deposited data

Results flagged for a closer look

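Within groups of 4 or more arrays, 56 groups of probe set values were examined for an array far from the others, which chance gives in about 1 of 20, and 5 were found. Cxcl12 1417574_at had 49.3 on medullary thymocyte array 3, against 5.26 to 17.9 on the other 4. Cxcl12 1439084_at, which did not pass the filter, had 46.9 on cortical thymocyte array 3, against 10.7 to 17.2 on the others. Ccr9 1436065_at had 762 on whole cortex array 7, against 256 to 438 on the other 6. Ccr9 1442758_at had 63.9 on whole medulla array 1, against 175 to 252 on the others. Ackr4 1426139_a_at, which did not pass, had 29.8 on medullary thymocyte array 2, against 5.21 to 9.32. None of these values belongs to the brightest probe set of a gene.

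The compartment difference differed between tissue and sorted thymocytes by the interaction test in limma for Cxcl12 (-3.61), Ccl25 (-3.07) and Ccr9 (-1.83). For these genes the medulla-over-cortex value was lower in tissue than in thymocytes. The signals of both ligands were themselves higher in tissue and dim in sorted cells. Ackr4 differed the other way (0.95, adjusted p = 0.015), below the size required for a call. For Cxcr4 the term was 0.03.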

How the results depend on the processing

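For the members, 1784 of 1802 values over all alternatives kept their side of the threshold and, where called in the main fit, their direction. Values not called in the main fit could change sign within this count, as Ccr9 in sorted thymocytes did under quantile normalization. Ackr4 carried most of the exceptions. Its medulla-over-cortex call was lost at 0.89 with an offset of 105, 0.95 after quantile normalization and 0.95 as a mean over probe sets, and it did not pass the stricter filter. Its interaction was called at 1.03 with an offset of 6.55 and 1.13 within the arrays that are not wide-tailed, and ranged from 0.83 to 1.13 with 1 array left out (called without whole medulla 2, whole cortex 7, medullary thymocytes 1 or cortical thymocytes 5). Its whole medulla over medullary thymocytes value was called at 1.01 and 1.40 under the same settings and ranged from 0.86 to 1.12 with 1 array left out (called without whole medulla 2 or medullary thymocytes 1). Ccr9 depended on the probe set: with plain-suffix sets its interaction reversed to 0.073, its sorted difference was called at -1.11 and its whole medulla over medullary thymocytes value was -0.90, not called. Quantile normalization gave a Ccr9 interaction of -0.85, not called. Ccl25 in tissue was -0.97 as a mean over probe sets, which takes in the dim set. The cause of the other changes was not tested.

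Counts of genes called over the whole table moved by over 1.5 times in places, and the main counts are in brackets. Stricter filtering lowered counts called higher to 1368 (2511) in whole medulla over whole cortex, 882 (1723) in the interaction, 768 (1298) in whole cortex over its thymocytes and 1233 (2622) in whole medulla over its thymocytes. With an offset of 105, counts called higher were 675 (1035) in sorted thymocytes, 108 (181), 230 (396) and 29 (60) between cortical parts (perimedullary over central, perimedullary over subcapsular, central over subcapsular) and 621 (1298) in whole cortex over its thymocytes. Counts called lower were then 155 (299), 1 (5), 136 (224), 61 (118), 79 (205) and 104 (166) (interaction, the same cortical parts, whole cortex and whole medulla over their thymocytes). Central over subcapsular cortex gave 95 higher with array weights, 94 within the other arrays and 78 lower without central array 2. Perimedullary over central gave 3 lower with an offset of 6.55, 2 under the stricter filter, 8 within the other arrays, 10 with array weights and 1 to 3 without perimedullary arrays 1 or 3 or central arrays 1 or 3. Whole cortex over its thymocytes gave 373 lower with the replicate block, 44 within the other arrays and 50 with a tail term, and whole medulla over its thymocytes gave 271 with the block and 329 after quantile normalization. That normalization moved the median of all genes in tissue from 0.11 to -0.02.

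Whether replicate numbers pair the groups could not be told. In whole medulla over whole cortex the correlations of same-numbered arrays ran from -0.03 to 0.26 over 7 pairs, 4 of them over 0.1. No correlations of differently numbered arrays were set beside them. With the replicate block no call of a member changed, and Cxcr4 in tissue was -2.99. Dim signals, such as Cxcl12 in sorted cells, limit what fold changes can show.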
